A study of Homo sapiens with 73 samples.

Results

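Gene expression in Ewing sarcoma cells that had regrown after the cycle 3 course of vincristine, doxorubicin and cyclophosphamide (VDC3) was compared with expression in the same lineages after the preceding course, etoposide and cyclophosphamide of cycle 2 (EC2). The comparison was defined by the treatment and time point labels and took in 14 of the 73 RNA-seq libraries, 7 VDC3 libraries at time point 5 and 7 EC2 libraries at time point 4, paired by lineage number. Lineages R1 to R7 were parallel cultures begun from 1 stock of CHLA-9, an established Ewing sarcoma line that carries the EWSR1-FLI1 fusion, and had by then received VDC and EC in turn. VDC3 cultures had thus had 5 courses and EC2 cultures the first 4 of those, each course being 5 days at the EC70, the concentration with 70% of the drug effect, followed by regrowth without drug before RNA was taken. The background for culture time was the DMSO arm, carrying the same fusion but given no chemotherapy: lineages R8, R9 and R10 at time point 5 and R8 and R9 at time point 4, so that 2 DMSO lineages had both time points. All lineages descend from 1 cell line, so they are replicate cultures of 1 tumour model and not of several tumours, and a VDC3 library also differs from its EC2 library by an added course and by time in culture, which cannot be told apart from the drugs used.

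Vincristine blocks microtubule assembly, doxorubicin and etoposide trap topoisomerase II on cut DNA, and cyclophosphamide crosslinks DNA once it has been activated. EWSR1-FLI1 is an aberrant transcription factor that activates one set of genes, NR0B1 among them, and represses another that includes many mesenchymal and matrix genes. Immediate early genes such as EGR1, FOS and JUNB encode transcription factors and feedback inhibitors that are transcribed within minutes of growth factor, stress or cytokine signalling, without new protein synthesis, and their transcripts are short-lived. Of the suppressors of cytokine signalling, the CISH and SOCS proteins, CISH and SOCS1 to SOCS3 are induced by JAK-STAT signalling and in turn inhibit it. DEPP1 is a target of FOXO transcription factors.

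Promoter sequence is shown for EGR1 and DEPP1, which had the smallest p-values of the comparison, and for CISH, a classical STAT5 target picked after its values were seen. Each is the 250 bases before the gene's start in the RefSeq annotation of GRCh38.p14, written 5′ to 3′ on the gene's strand, with 1 kind of motif match in capitals: the CArG box bound by serum response factor in EGR1, TGTTTAC, a forkhead motif, in DEPP1, where it lies on the opposite strand as GTAAACA, and TTCNNNGAA, a STAT motif, in CISH. The windows are chr5:138465229-138465478 on the plus strand for EGR1, chr10:44978810-44979059 on the minus strand for DEPP1 and chr3:50611775-50612024 on the minus strand for CISH.
EGR1: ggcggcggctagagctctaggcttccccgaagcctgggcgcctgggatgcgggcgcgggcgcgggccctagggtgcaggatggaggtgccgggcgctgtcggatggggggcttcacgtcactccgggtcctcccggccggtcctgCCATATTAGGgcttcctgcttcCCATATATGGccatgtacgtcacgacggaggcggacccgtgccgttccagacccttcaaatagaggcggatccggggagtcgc
DEPP1: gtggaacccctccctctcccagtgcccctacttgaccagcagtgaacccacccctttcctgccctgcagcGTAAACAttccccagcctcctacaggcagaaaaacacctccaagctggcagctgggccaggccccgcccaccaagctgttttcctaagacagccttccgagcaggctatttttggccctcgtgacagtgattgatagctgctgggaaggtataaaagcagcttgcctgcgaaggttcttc
CISH: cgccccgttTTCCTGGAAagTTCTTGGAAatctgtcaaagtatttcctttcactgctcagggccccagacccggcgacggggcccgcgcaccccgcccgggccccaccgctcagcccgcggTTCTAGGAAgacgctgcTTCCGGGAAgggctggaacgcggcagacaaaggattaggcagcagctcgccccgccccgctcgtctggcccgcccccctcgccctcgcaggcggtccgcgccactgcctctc
The 2 CArG boxes of EGR1 lie 105 to 96 and 83 to 74 bases before the start, and a CArG box on either strand was found in 1.16% of all 35116 promoter windows of that length. The match of DEPP1 lies 180 to 174 bases before the start, and TGTTTAC on either strand was found in 2.98% of windows. The 4 matches of CISH lie at 241 to 233, 230 to 222, 129 to 121 and 112 to 104, and TTCNNNGAA was found in 6.57% of windows. The EGR1 window also held 1 TTCNNNGAA, apart from its CArG boxes, and the window of JUNB held 1 TGTTTAC. The windows of FOS, SOCS3, DUSP6, KLF2 and KLF6 held none of the 3 motifs in these letters. Sequence more than 250 bases before the start was not searched, so matches further out are not covered. A match is a string of letters and was not tested as a binding site.

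The values are quantile-normalized counts, so every treated column has the same total and library depth is unknown. Of 36233 genes, the 14565 with a mean of at least 10 over the 73 libraries were tested. Genes at the lowest value of a library numbered 14053 to 16018 in VDC3 libraries and 14119 to 15576 in EC2 libraries. The line's identity markers were present: NR0B1 lay between 1668 and 4286 in VDC3 libraries and between 1764 and 2492 in EC2 libraries, and STEAP1 between 532 and 921 in VDC3 libraries and between 540 and 802 in EC2 libraries. CD99, the surface antigen used to diagnose the tumour, is an exception, at 1.66 or lower in all 14 libraries. Whether the low CD99 values come from the cells or from how reads were counted was not tested. NKX2-2 was low, at 7.22 to 31.9 in VDC3 libraries and 5.62 to 33.9 in EC2 libraries. Among markers of other cell types, 11 of 18 epithelial, 13 of 18 blood cell and 5 of 18 muscle and fibroblast genes had a mean under 10. EPCAM and MYOD1 were at 2.02 or lower in all 14 libraries. The summed blood cell markers ranged from 638 to 1048 in VDC3 libraries and from 594 to 1083 in EC2 libraries. The summed epithelial markers ranged from 16547 to 27299 in VDC3 libraries and from 17973 to 27481 in EC2 libraries. Most of the epithelial sum was 1 gene, CLDN1, at 16168 to 27158 in VDC3 libraries and 17125 to 27158 in EC2 libraries. The muscle and fibroblast sum, which includes the collagens COL1A1 and COL3A1, ranged from 9813 to 22197 in VDC3 libraries and from 8104 to 19839 in EC2 libraries.

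In VDC3 libraries many immediate early genes were higher than in EC2 libraries of the same lineage at an unadjusted p under 0.05, and many zinc finger genes were slightly lower, but no single gene passed correction over all genes. Of the 8 CISH and SOCS genes, a group chosen after its values were seen, 4 were higher and 1 lower at that level. With limma, pairing libraries by lineage and adjusting by Benjamini-Hochberg, 0 of 14565 genes had an adjusted p under 0.05 (0% called), and the smallest adjusted p was 0.0531, shared by EGR1 and DEPP1. At an unadjusted p under 0.05 there were 1475 genes, 694 higher after VDC3 (4.76% of genes tested) and 781 lower (5.36%). Leaving out single lineages moved that count of 1475 to 2554 without R1, 897 without R3 and 902 without R4. A gene was higher after VDC3 in all 7 lineages in 248 cases (1.7%) and lower in all 7 in 305 cases (2.09%). Differences below are log2 differences of the value plus 1, VDC3 minus EC2 within a lineage, given with their standard error, and counts of a list's members at an unadjusted p under 0.05 are read against the percentages above. Bulk RNA cannot separate fewer cells of a kind from less RNA per cell.

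**Figure D1:**
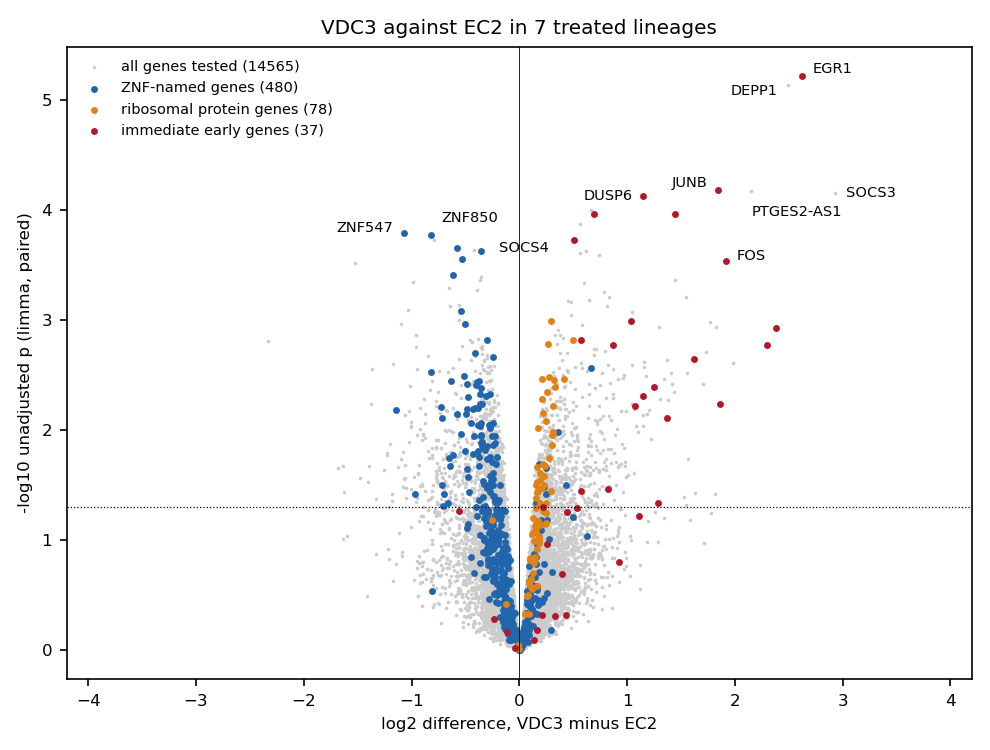
Log2 difference (VDC3 minus EC2, horizontal axis) against -log10 of the unadjusted p of the paired limma fit (vertical axis) for the 14565 genes tested, with the dotted line at 0.05. Immediate early genes in red lie mostly to the right with EGR1 at the top, ZNF-named genes in blue lean left and ribosomal protein genes in orange form a narrow column right of 0.

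EGR1, a zinc finger transcription factor at chr5:138465479-138469303, measured 1492 at the lowest, 3270 at the median and 26214 at the highest in the 7 VDC3 libraries, against 201, 865 and 4981 in the 7 EC2 libraries. The groups overlapped, with R4, R6 and R7 far above the other VDC3 cultures and R6 and R7 above the other EC2 cultures. Within every lineage VDC3 was higher, by 2.89 in R1, 2.27 in R2, 1.92 in R3, 4.34 in R4, 1.97 in R5, 1.77 in R6 and 3.23 in R7. The mean difference was 2.63 ± 0.286 (limma, Benjamini-Hochberg adjusted p = 0.0531). Leaving out R4 gave 2.34 with an adjusted p of 0.0292, and the adjusted p ranged from 0.0162 to 0.316 over all 17 alternatives tried, so the gene stands at the threshold and not clearly on either side.

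DEPP1, at chr10:44976128-44978809, measured 402, 1083 and 2950 (lowest, median, highest) after VDC3 and 101, 175 and 555 after EC2. The groups overlapped in their ranges although each lineage was higher after VDC3, by 1.45 in R2 at the least and 3.98 in R4 at the most. Its mean difference was 2.49 ± 0.277 with an adjusted p of 0.0531 by limma. JUNB, a partner in the AP-1 transcription factor, measured 1036, 1344 and 6329 after VDC3 and 147, 719 and 2244 after EC2. Again the ranges overlapped and all 7 lineages were higher, with a mean difference of 1.84 ± 0.269 (adjusted p = 0.178, limma). SOCS3, the feedback inhibitor of the gp130 and JAK pathway, measured 139, 486 and 5287 after VDC3 and 22, 83.9 and 599 after EC2. Its mean difference was 2.93 ± 0.432, with lineages between 1.02 in R2 and 5.19 in R4 (adjusted p = 0.178, limma). PTGES2-AS1, a low-level transcript antisense to PTGES2, measured 9.43, 32.9 and 42 after VDC3 and 1.72, 4.98 and 12.5 after EC2, with a difference of 2.15 ± 0.316. Whether reads were counted by strand is not stated, so its reads cannot be told apart from those of PTGES2 where the 2 genes overlap.

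**Figure D2:**
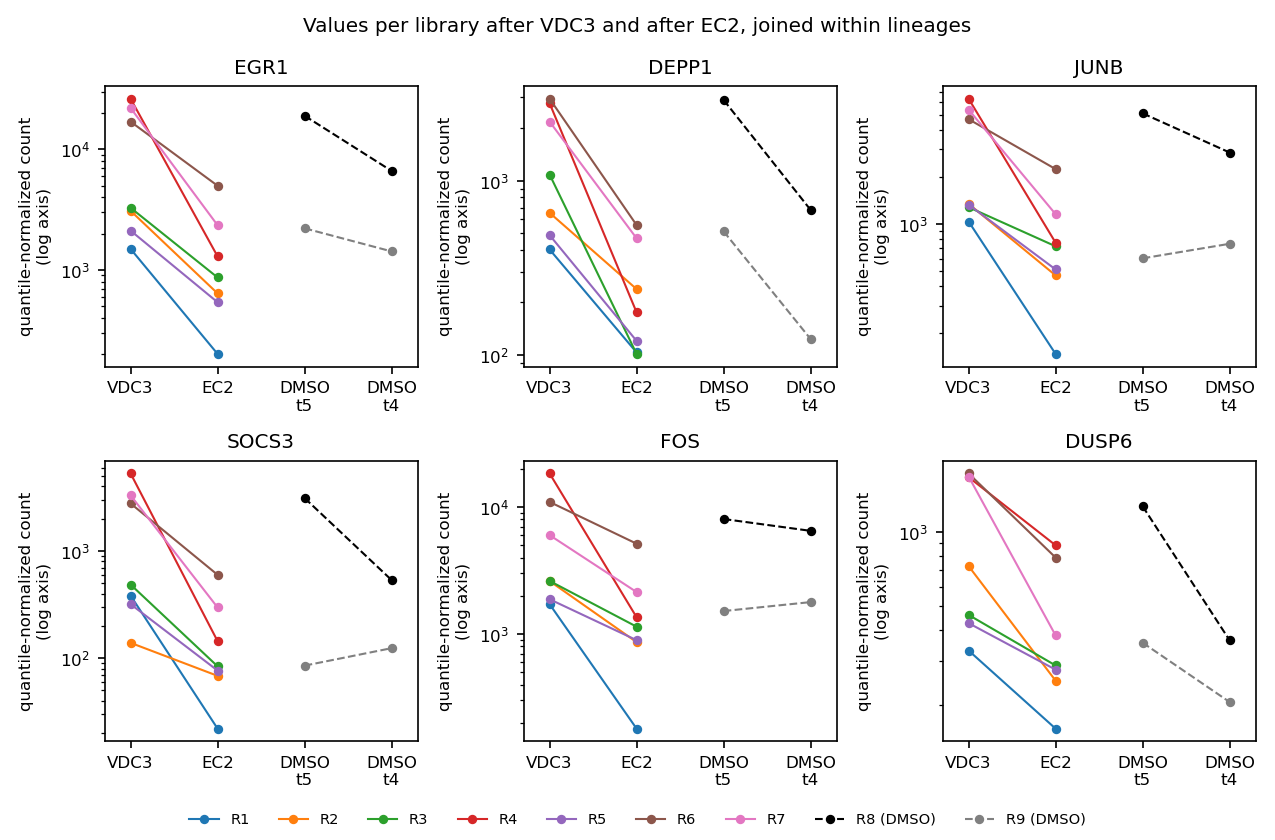
Quantile-normalized counts (log axis) of 6 genes in each library, VDC3 left of EC2, with a line joining the libraries of 1 lineage, and DMSO lineages R8 and R9 at time points 5 and 4 dashed. All 7 treated lines slope down to EC2 in each panel, lineages R4, R6 and R7 lie highest after VDC3, and the DMSO lines slope the same way for EGR1, DEPP1 and DUSP6 and differ in sign between R8 and R9 for JUNB, SOCS3 and FOS.

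The immediate early list held 38 genes, of which KLF4 was below the expression minimum and 37 were tested. Of these, 22 were higher after VDC3 at an unadjusted p under 0.05 and 0 lower, against 4.76% and 5.36% of all genes, and 0 passed the adjusted threshold. In all, 33 of 37 differences were positive and the median was 0.82, against -0.00667 over all genes tested. All 7 lineages were higher for 13 members, and 12 of the 50 genes with the smallest p on the higher side came from this list. The list was assembled with earlier results of these data known.

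Among its transcription factors, FOS measured 1719, 2619 and 18384 after VDC3 and 180, 1143 and 5146 after EC2, a difference of 1.92 ± 0.341 (adjusted p = 0.191, limma). FOS was higher in all 7 lineages although the ranges overlapped. Of the other AP-1 subunits in the list, FOSB, JUN and JUND were higher in all 7, with differences of 2.3 ± 0.525, 1.15 ± 0.313 and 0.58 ± 0.13. FOSL1 and FOSL2 were not, at -0.233 ± 0.351 with 3 of 7 lineages positive and 0.161 ± 0.343 with 4 of 7, and ATF3, which dimerizes with JUN proteins, had 0.929 ± 0.607 with 3 of 7. EGR3, a paralog of EGR1, was higher in all 7 by 2.38 ± 0.517, and EGR2 by 0.57 ± 0.232 with 5 of 7 positive, while EGR4 had -0.041 ± 0.725 with 4 of 7 positive. KLF2, a Krüppel-like factor, measured 196, 323 and 990 after VDC3 and 69.8, 110 and 304 after EC2, a difference of 1.45 ± 0.226. Its relative KLF6 differed by 0.69 ± 0.108 and both were higher in all 7 lineages. MYC, a growth regulator, was narrow in range, at 6253, 8475 and 9469 after VDC3 and 5047, 5450 and 7164 after EC2, with a difference of 0.50 ± 0.0845 that was positive in all 7. The orphan nuclear receptors NR4A1 and NR4A2 differed by 1.62 ± 0.389 and 1.86 ± 0.522, NR4A2 at values of 72.8 or lower in every one of the 14 libraries.

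Some feedback inhibitors of MAP kinase signalling were among the higher genes as well. DUSP6, the phosphatase that inactivates ERK, measured 331, 726 and 1719 after VDC3 and 160, 288 and 881 after EC2. The ranges overlapped, all 7 lineages were higher after VDC3, and the difference was 1.15 ± 0.171 (adjusted p = 0.178, limma). Without drug DUSP6 was also higher at time point 5, by 1.8 in R8 and 0.795 in R9. DUSP1 and the receptor signalling inhibitor SPRY2 differed by 1.07 ± 0.303 and 0.86 ± 0.198. Other inhibitors of the list did not rise throughout. DUSP4, another ERK phosphatase, had -0.56 ± 0.255, lower in 6 of 7 lineages with an unadjusted p of 0.0546 by limma. DUSP2, DUSP5 and SPRY4 had lineages on both sides. DUSP2 lay between -1.64 in R3 and 2.56 in R5, DUSP5 between -1.8 in R3 and 4.16 in R1, and SPRY4 between -1.45 in R3 and 0.982 in R4. ZFP36, which promotes decay of mRNAs with AU-rich elements, differed by 1.37 ± 0.405 and was lower after VDC3 in R3 alone. CCN1, a secreted matricellular protein, measured 1332, 7523 and 18173 after VDC3 and 1415, 2010 and 13930 after EC2, a difference of 1.25 ± 0.33 with R2 negative.

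**Figure D3:**
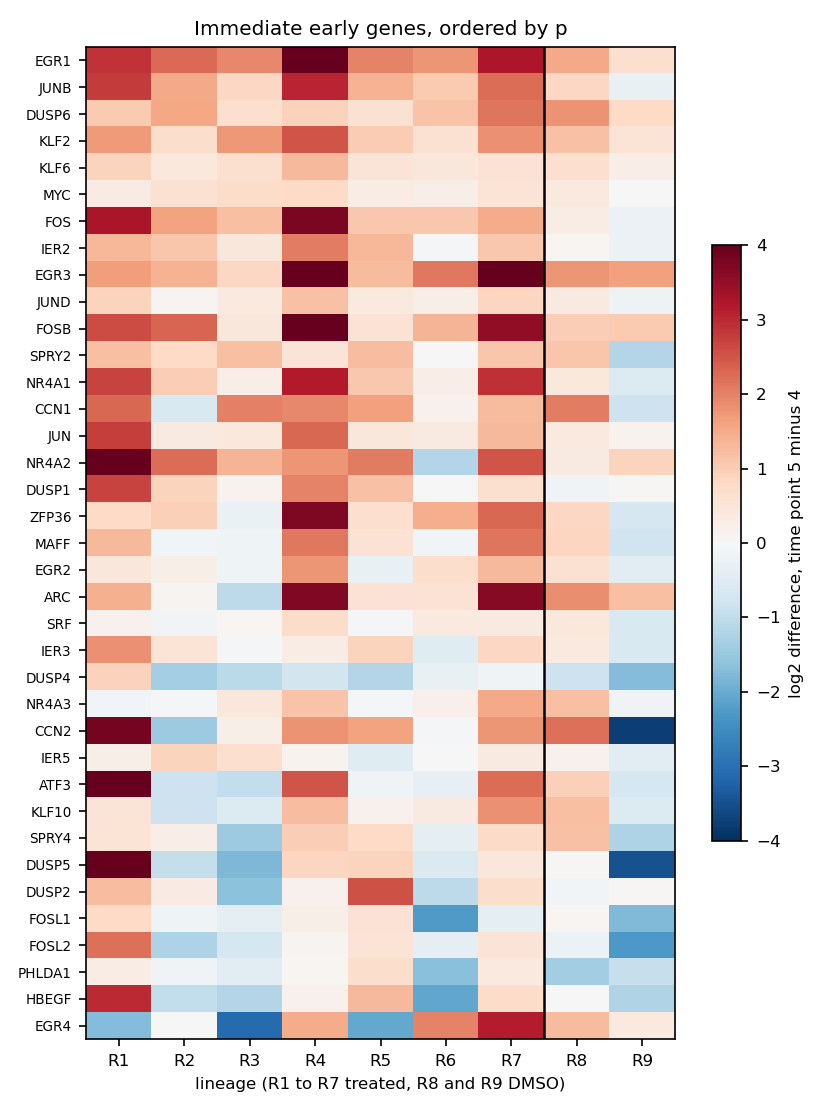
Log2 difference of each immediate early gene (rows, ordered by p) in treated lineages R1 to R7 and, right of the black line, DMSO lineages R8 and R9, time point 5 minus 4, on a colour scale from blue (lower at time point 5) to red (higher) that saturates at 4. Most of the upper rows are red across all 7 treated columns, most deeply in R1, R4 and R7, R8 is mostly pale red and R9 is mixed.

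The size differed between lineages. The median difference of the 37 genes was 1.34 in R1, 1.47 in R4 and 1.3 in R7, 0.658 in R5, and 0.319, 0.238 and 0.197 in R2, R3 and R6. R1 also had large differences in genes whose sign varied between the other lineages. DUSP5 had 4.16 in R1, -0.941 in R2 and 0.872 in R4. ATF3 had 4.04, -0.832 and 2.53 in the same lineages, and CCN2 had 3.84, -1.44 and 1.79. In the DMSO arm the median was 0.598 in R8 and -0.446 in R9. There 10 of the 37 genes were higher in both lineages and 4 lower in both, against 33.1% and 29.9% of all genes. Those 10 were EGR1, EGR3, EGR4, FOSB, JUN, KLF2, KLF6, DUSP6, NR4A2 and ARC. The 4 lower in both were DUSP4, FOSL2, HBEGF and PHLDA1. EGR3 had 1.78 in R8 and 1.64 in R9, FOSB 0.975 and 1.06, KLF2 1.17 and 0.542, and KLF6 0.668 and 0.262.

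DMSO lineages show how far expression differs over the same interval without drug. EGR1 measured 18944 in R8 and 2211 in R9 at time point 5, against 6611 in R8 and 1423 in R9 at time point 4, differences of 1.52 and 0.636, and R10 had 972 at time point 5. DEPP1 was higher by 2.1 in R8 and 2.04 in R9, within the range of the treated lineages. A limma fit of the 18 libraries of R1 to R9 gave a DMSO change of 2.07 ± 0.49 for DEPP1 (adjusted p = 0.904) and a difference between arms, treated minus DMSO, of 0.418 ± 0.555 (unadjusted p = 0.468). For EGR1 the difference between arms was 1.55 ± 0.595 (unadjusted p = 0.0256, adjusted p = 1), for JUNB 1.58 ± 0.574, for FOS 1.88 ± 0.69 and for SOCS3 1.93 ± 1.02, all with an adjusted p of 1 by limma. Over all genes 0 differed between arms at an adjusted p under 0.05 (0% called) and 354 did at an unadjusted p under 0.05, a count that was 615 without R6 and 104 without R9. Those 354 are under 4.76% of the genes tested, and a threshold of 0.05 passes about 1 of 20 genes without any difference. With 2 DMSO lineages, the DMSO change itself was called for 0 genes in the fit of 18 libraries. There 730 had an unadjusted p under 0.05, under 5.36% of genes tested (1165 genes without R1, 200 without R9). A fit of R8 and R9 alone, 4 libraries, called 713. DMSO and treated columns carry slightly different totals in the deposited table, 13582508 and 13583520, so levels are not strictly on 1 scale between arms, while differences within a lineage are. In this fit of 18 libraries EGR1 and DEPP1 had an adjusted p of 0.0162 for the treated change, an alternative chosen after seeing the data.

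The CISH and SOCS gene family was followed up because SOCS3 and SOCS4 had come up on opposite sides. It is a group chosen after its values were seen. Of its 8 members, CISH and SOCS1 to SOCS7, all passed the expression minimum, 4 were higher and 1 lower at an unadjusted p under 0.05. CISH, which inhibits signalling through STAT5, measured 29.3, 76.3 and 310 after VDC3 and 16, 29.3 and 40.7 after EC2, a difference of 1.83 ± 0.395, higher in all 7 lineages. SOCS1, an inhibitor of JAK kinases, measured 54.6, 122 and 405 after VDC3 and 42.5, 52.9 and 79.7 after EC2, a difference of 1.3 ± 0.359 with R5 at -0.108. SOCS2 differed by 0.45 ± 0.178. SOCS4 was the one lower, at 529, 551 and 629 after VDC3 and 652, 726 and 930 after EC2. For SOCS4 the groups did not overlap, and the difference was -0.423 ± 0.073 (adjusted p = 0.188, limma). SOCS5, SOCS6 and SOCS7 differed by 0.03 ± 0.0698, 0.02 ± 0.103 (-0.0559 without R1) and -0.09 ± 0.117. In the DMSO lineages CISH was higher in both, by 2.17 in R8 and 0.666 in R9, and SOCS3 had 2.54 in R8 and -0.535 in R9.

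Genes of innate sensing and antigen presentation were higher after VDC3 for several members. STING1, the adaptor of cytosolic DNA sensing, named after its values were seen, measured 585, 717 and 1438 after VDC3 and 436, 530 and 632 after EC2, a difference of 0.66 ± 0.102 that was positive in all 7 lineages. It was also positive in both DMSO lineages, at 0.238 in R8 and 0.326 in R9. HLA-E, a class I molecule that engages natural killer cell receptors, measured 708, 1144 and 1798 after VDC3 and 458, 747 and 774 after EC2. HLA-E was higher in all 7, by 0.623 ± 0.108 (adjusted p = 0.188, limma), while in the DMSO arm it had 0.197 in R8 and -0.221 in R9. Of the 17 antigen presentation genes tested, 7 were higher and 1 lower at an unadjusted p under 0.05, with a median of 0.233. They included TAPBP and TAP1, which load and transport peptides, at 0.29 ± 0.0792 and 0.39 ± 0.138. The lower one was CANX, an endoplasmic reticulum chaperone, at -0.16 ± 0.0645. Interferon-stimulated genes were positive in 28 of 32 but reached an unadjusted p under 0.05 in 3, IRF1 at 0.79 ± 0.185, IFIT3 at 0.64 ± 0.168 and IFITM3 at 0.78 ± 0.284. The blood cell marker PTPRC stayed at 9.48 or lower in VDC3 libraries and 9.87 or lower in EC2 libraries.

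On the lower side, 3 of the 5 smallest p-values belonged to zinc finger genes. ZNF850, at chr19:36743480-36772807, measured 177, 258 and 357 after VDC3 and 370, 436 and 638 after EC2, so that the groups did not overlap. The difference was -0.819 ± 0.135 (adjusted p = 0.188, limma), and DMSO lineages showed -0.598 in R8 and -0.536 in R9. ZNF547, at chr19:57363551-57379565, measured 7.7, 18.8 and 26.4 after VDC3 and 25.4, 36 and 57.9 after EC2. Its groups overlapped, its difference was -1.07 ± 0.176, and DMSO lineages had -0.368 in R8 and 0.49 in R9. ZNF280B, at chr22:22484421-22509154, measured 174, 198 and 317 after VDC3 and 284, 356 and 382 after EC2, a difference of -0.578 ± 0.099, with -0.447 in R8 and -0.844 in R9. LINC02593, a long noncoding RNA at chr1:916818-919692, measured 263, 333 and 653 after VDC3 and 489, 604 and 750 after EC2, a difference of -0.795 ± 0.133, with -0.919 in R8 and -0.675 in R9.

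The wider group of genes whose symbol is ZNF and a number, most of them Krüppel-type transcriptional regulators, was looked at after these values were seen. Of the 480 tested, 103 were lower after VDC3 at an unadjusted p under 0.05 (21.5%, against 5.36% of all genes) and 8 were higher. In all 7 lineages 48 were lower, and the group, 3.3% of genes tested, supplied 11 of the 50 smallest p-values on the lower side (22%). The differences were small, with a median of -0.14. On chromosome 19, where zinc finger genes lie in clusters, 73 of 242 ZNF genes were lower at an unadjusted p under 0.05 (30.2%, median -0.22), against 30 of 238 on other chromosomes (12.6%, median -0.0811), a contrast that was not tested. Of the other genes on chromosome 19, 26 of 819 were lower (3.17%, median 0.0319). In the DMSO arm 162 of the 480 were higher in both lineages and 97 lower in both, against 33.1% and 29.9% of all genes. The median there was 0.0294. Members of these clusters are close copies of each other, and how reads that fit more than 1 gene were counted is not given in the sources used here, so single members are uncertain.

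Few genes separated the groups completely. The 7 VDC3 values lay above all 7 EC2 values for 7 genes (0.0481% of genes tested) and below them for 15 (0.103%). Those above were RASA4, EIF1B, GJD3, SNORA7B, ST7-AS1, RAB11B-AS1 and CATSPER2P1, with differences between 0.28 ± 0.0772 for EIF1B and 1.16 ± 0.281 for SNORA7B. RASA4 encodes a RAS GTPase-activating protein, at a mean of 11.5 after VDC3 and 6.86 after EC2. Those below were SOCS4, RIOK2, RO60, MTO1, SREK1IP1, TAOK1, DCAF13, CEP295, UQCC5, UBE2F and the zinc finger genes ZNF184, ZNF567, ZNF100, ZNF823 and ZNF850. SREK1IP1, which interacts with a splicing regulator, had a mean of 580.4 after VDC3 and 738.2 after EC2, a difference of -0.35 ± 0.0652. RIOK2, a kinase in small ribosomal subunit maturation, differed by -0.28 ± 0.0808.

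Ribosomal protein genes were slightly higher after VDC3. Of 78 tested, 34 were higher at an unadjusted p under 0.05 and 0 lower, 74 were positive, and the median was 0.172. RPL35 measured 3967, 4778 and 5510 after VDC3 and 3485, 3790 and 4316 after EC2, a difference of 0.29 ± 0.0616 that was positive in all 7 lineages. The count of 34 became 19 without R2 or without R4, 21 without R6 or without R7 and 57 without R5, and 9 in the fit of all 49 treated libraries. The list median was -0.0236 in R1 and -0.105 in R5 and lay between 0.219 and 0.357 in the other 5, and it was 0.152 in R8 and 0.105 in R9 of the DMSO arm. Ribosomal protein genes have many processed pseudogenes, which share reads with them. Of 47 histone genes tested, 5 were higher and 0 lower, with H2AC6 at 0.453 ± 0.0904, and list medians ran between -0.624 in R2 and 1.13 in R3. In the DMSO arm the histone median was 0.272 in R8 and 0.162 in R9. There 32 of the 47 were higher in both, against 33.1% of all genes, and H2AC6 had 0.573 in R8 and 0.601 in R9. Small nuclear and polymerase III RNAs, which are largely not polyadenylated, were higher for 5 of 10 tested, with SNORA73B at 0.704 ± 0.186, and the median over the 10 ranged from -0.249 in R5 to 1.76 in R2 among treated lineages and was 1.53 in R8 and -0.382 in R9 of the DMSO arm. Mitochondrially encoded genes, another gauge of RNA makeup, were at an unadjusted p under 0.05 for 0 of 13, with list medians between -0.686 in R2 and 0.514 in R6. The part that RNA makeup had in the differences of other genes was not tested.

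Proliferation and DNA repair lists had negative median differences, with the lineages on both sides. All 38 G2/M and mitosis genes tested had a negative mean difference, with a median of -0.189, but 0 reached an unadjusted p under 0.05. MKI67, the proliferation antigen, measured 6465, 9032 and 12882 after VDC3 and 8585, 11226 and 13495 after EC2, a difference of -0.269 ± 0.147. The list medians were 0.733 in R1 and 0.177 in R5, and negative in the other 5, down to -0.811 in R6 and -0.691 in R7. Of 42 G1/S and replication genes 3 were lower, among them CCNE2, cyclin E2, at -0.62 ± 0.21. Homologous recombination and Fanconi anaemia genes, which repair double-strand breaks and crosslinks, were lower for 9 of 33 and higher for 0. FANCM, a DNA translocase that starts crosslink repair, measured 372, 485 and 531 after VDC3 and 475, 572 and 643 after EC2, and was lower in all 7 lineages, with a mean difference of -0.286 ± 0.0705. XRCC2, a homologous recombination factor, was lower in all 7 as well, at -0.35 ± 0.103, and BRCA2 in 6 of 7, at -0.38 ± 0.121. PRKDC, the kinase of end joining, differed by -0.255 ± 0.0809. The list of end joining, excision and mismatch repair genes that holds PRKDC had 4 lower and 1 higher of 39, with a median of -0.0359. The drug-free lineages R8 and R9 had G1/S medians of -0.137 and -0.148, while the treated median was -0.157. Of the 42 genes, 24 were lower in both R8 and R9, against 29.9% of all genes. Their G2/M medians were -0.308 and 0.011, with 17 of 38 genes lower in both, against the same 29.9%. Their homologous recombination medians were 0.023 and -0.0318, and those of the other repair list 0.00597 and 0.0817.

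The targets of the drugs and genes known to modify response to them showed small or uneven differences. TOP2A, the topoisomerase that doxorubicin and etoposide trap, measured 6153, 8585 and 11226 after VDC3 and 6710, 10066 and 11044 after EC2, a difference of -0.205 ± 0.126 (unadjusted p = 0.139). SLFN11, whose product sensitizes cells to DNA damage during replication, differed by -0.039 ± 0.077. Among 18 drug transporters tested and 14 topoisomerase and adduct repair genes, 0 reached an unadjusted p under 0.05 in either direction, and ABCB1 was below the expression minimum. SLC22A16, a carnitine carrier that also takes up doxorubicin, had the smallest p of the transporters, at 1.97, 26.7 and 50.5 after VDC3 and 0.936, 3.56 and 42.1 after EC2. Its difference of 1.78 ± 0.818 was negative in R1 and R5 and positive in the other 5 lineages and in both DMSO lineages, by 4.02 in R8 and 2.86 in R9. Tubulin and microtubule genes gave 1 higher and 1 lower of 32, the lower one being TBCE, a tubulin folding cofactor, at -0.355 ± 0.131. AKR1C1, an aldo-keto reductase that can reduce doxorubicin, measured 28.7, 39.1 and 67.9 after VDC3 and 13.4, 22.6 and 33.8 after EC2, higher in all 7 lineages by 0.819 ± 0.2.

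Of 28 p53 targets, 2 were higher and 2 lower. The higher ones were the polo-like kinases PLK3 at 0.817 ± 0.166 and PLK2 at 1.04 ± 0.293, both positive in all 7 lineages. PLK3 was positive in the DMSO lineages too, at 1.3 in R8 and 0.403 in R9. The lower ones were POLH at -0.32 ± 0.116 and GDF15 at -0.95 ± 0.412. GDF15 was near the floor, at 3.09 or lower in VDC3 libraries and 9.3 or lower in EC2 libraries. It passed the expression minimum only through other libraries of the series. CDKN1A, the p21 cell cycle inhibitor, measured 226, 893 and 1791 after VDC3 and 241, 1185 and 4992 after EC2, and its differences lay between 2.35 in R1 and -2.48 in R4, with a mean of -0.553 ± 0.48. MDM2 had a mean difference of -0.314 ± 0.147, with R4 at -1.24. In the DMSO lineages CDKN1A had -0.607 in R8 and -1.29 in R9. The median of the 28 targets was -0.108 in treated lineages and -0.103 in the DMSO arm. Of the 28, 5 were higher in both DMSO lineages and 10 lower in both, against 33.1% and 29.9% of all genes.

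The fusion's partner genes differed little. EWSR1 differed by -0.0104 ± 0.0541 (0.0195 without R1) and FLI1, whose reads include the fusion transcript, by 0.124 ± 0.0666. NR0B1, an activated target, differed by 0.371 ± 0.14 (unadjusted p = 0.0262), with R5 at -0.408 and the other 6 lineages positive. Of 30 activated genes, 2 were higher and 2 lower with a median of 0.055, and of 26 repressed genes, 4 were higher and 1 lower with a median of -0.0463. E2F3, counted among the activated genes, had -0.306 ± 0.0969 (unadjusted p = 0.0112).

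Those small means over repressed, matrix and hypoxia genes covered opposite differences in single lineages. The EWSR1-FLI1-repressed list had a median of 1.16 in R1, 0.234 in R5 and -0.433 and -0.416 in R2 and R6, and matrix genes 0.766 in R1 and -0.577 in R6. Hypoxia and glycolysis genes had medians of 0.697 in R1, 0.588 in R5, -0.551 in R6 and -0.357 in R7. Single genes were picked for their spread, so they are examples and no support for a split. CA12, a carbonic anhydrase induced by hypoxia, differed by 5.06 in R1, 1.57 in R5 and -4.52 in R6. Its EC2 values reached down to 0.00351. COL12A1, a fibril-associated collagen, differed by 0.138 in R1, 4.17 in R5 and -3.16 in R6. COL1A1 differed by 2.64 in R1, 0.00205 in R5 and -1.65 in R6. DMSO lineage R9, with no drug, had a median of -1.03 for repressed genes and -1.01 for matrix genes, and -4.39 for COL1A1, while R8 had -0.261, -0.14 and -1.05. Across the 14565 genes, the differences of R1 correlated at -0.62 with those of R6 and 0.53 with those of R5, and those of R6 at 0.54 with those of R7. Those of the drug-free lineage R8 correlated at 0.529 with R6, 0.556 with R7, -0.404 with R1 and -0.2 with R5. For R9 the values were 0.435 with R6, 0.25 with R7, -0.494 with R1 and -0.259 with R5. These are correlations over genes, which are not independent, and carry no test.

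**Figure D4:**
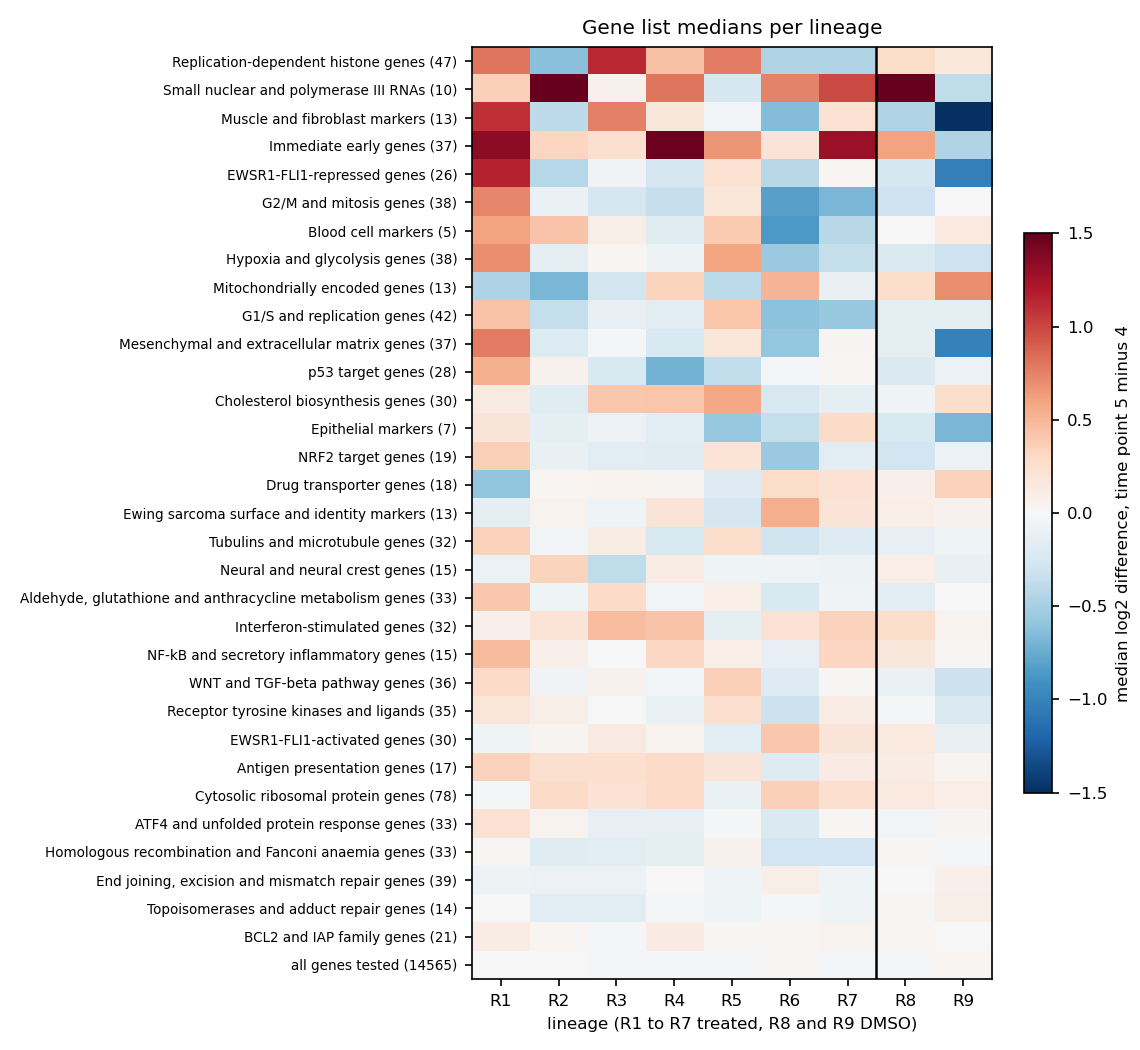
Median log2 difference (time point 5 minus 4, colour) of each gene list (rows, number of genes tested in brackets, ordered by the spread over treated lineages) in treated lineages R1 to R7 and, right of the black line, DMSO lineages R8 and R9. The immediate early row is red in all 7 treated lineages, the repressed, matrix, hypoxia and G2/M rows are red in R1 and blue in R6, and R9 is blue for the matrix and repressed rows.

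Individual members of the remaining lists that the naming rule took up were also variable. ROR2, a WNT receptor kinase, was higher in all 7 lineages by 1.73 ± 0.405, at 4.01, 21 and 215 after VDC3 and 0.00351, 5.97 and 138 after EC2. The glucose carrier SLC2A3 differed by 1.42 ± 0.37, the endoplasmic reticulum co-chaperone DNAJB9 by 1.04 ± 0.292 and CSF1, the macrophage growth factor, by 0.641 ± 0.212. TWIST1 and COL3A1, mesenchymal genes, differed by 0.437 ± 0.125 and 0.407 ± 0.124. ESRP1, an epithelial splicing regulator, differed by -1.23 ± 0.419, at 11.8, 32 and 52.8 after VDC3 and 10.2, 64.8 and 213 after EC2, and higher in R1 and R7. SOX10 differed by -0.648 ± 0.275 at low values, DIABLO by 0.395 ± 0.141, LSS by 0.344 ± 0.0952, GLG1 by 0.292 ± 0.102, ITGB2 by 0.273 ± 0.157, TOP3A by -0.137 ± 0.0659, SLC3A2 by -0.226 ± 0.113 and the mitochondrial gene COX1 by -0.411 ± 0.183. None of these had an adjusted p under 0.05 by limma.

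The steps on either side share libraries with this comparison and are given beside it. In EC2 against VDC2 (6 lineages, sharing the EC2 libraries), 926 genes rose (6.36% of genes tested) and 793 fell (5.44%) at an adjusted p under 0.05 by limma. The total of 1719 was 3421 without R1, 541 to 736 without R3, R4, R6 or R7 and 185 without lineage as a replicate block. The largest rises named by rule were NALF1 at 4.65 ± 0.801, the matrix protein gene POSTN at 4.13 ± 0.299 and MARCHF4 at 3.73 ± 0.495, and in VDC3 against EC2 these 3 had -1.41 ± 1.34, -0.672 ± 0.426 and -0.905 ± 0.717. The largest falls were SLC22A16 at -3.72 ± 0.504, PHYHIP at -2.74 ± 0.575 and VEGFD at -2.61 ± 0.421. In VDC3 against EC2 PHYHIP and VEGFD had 1.72 ± 0.959 and 0.317 ± 0.391. Some of these levels were near the floor, where the pseudocount of 1 weighs on a log2 difference. NALF1 had a mean of 0.195 after VDC2 and VEGFD a mean of 2.92 after EC2. Of the 37 immediate early genes 12 rose at that earlier step, among them JUNB by 1.19 ± 0.331 (adjusted p = 0.0481, limma), while EGR1 had 0.93 ± 0.447 (adjusted p = 0.203). SOCS3 rose by 1.27 ± 0.343 (adjusted p = 0.0433, limma). ZNF850 rose by 0.71 ± 0.0985 in EC2 against VDC2 (adjusted p = 0.00458, limma), and LINC02593 by 0.861 ± 0.134 (adjusted p = 0.00694, limma). The 480 ZNF genes as a group did not rise there, with a median of -0.0816. At an adjusted p under 0.05, 6 of them rose and 19 fell. DEPP1 had -0.0993 ± 0.143 there and MYC -0.058 ± 0.0699. Of the 38 G2/M genes 30 rose in EC2 against VDC2 and of the 78 ribosomal protein genes 16 fell. In EC3 against VDC3 (6 lineages, sharing the VDC3 libraries) 0 genes passed (0% called). At an unadjusted p under 0.05 there were 521, under 4.76% of genes tested (263 genes without R4, 1313 without R5, 183 without R6). There EGR1 had -0.45 ± 0.515, DEPP1 -0.72 ± 0.288, SOCS3 -0.875 ± 0.454 and ZNF850 0.353 ± 0.105.

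The next change from EC to VDC, VDC4 against EC3, used none of the 14 libraries and had 4 lineages, R1, R5, R6 and R7. By limma 0 genes passed the adjusted threshold (0% called). At an unadjusted p under 0.05 there were 755, under 5.36% of genes tested (1175 genes without R1, 398 without R7). EGR1 had 1.23 ± 0.696 (unadjusted p = 0.123), negative in R6, DEPP1 0.868 ± 0.774, JUNB 0.818 ± 0.479 and FOS 1.03 ± 0.433 (unadjusted p = 0.0503). SOCS3 had 0.236 ± 0.651, CISH -0.0284 ± 0.658 and STING1 -0.13 ± 0.209. The immediate early list was positive for 30 of 37 with a median of 0.294, against 0.00331 over all genes, and the ribosomal protein list for 69 of 78 with a median of 0.127. ZNF850 had 0.0972 ± 0.213 and SOCS4 -0.198 ± 0.129, and the 480 ZNF genes had a median of -0.0042.

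**Figure D5:**
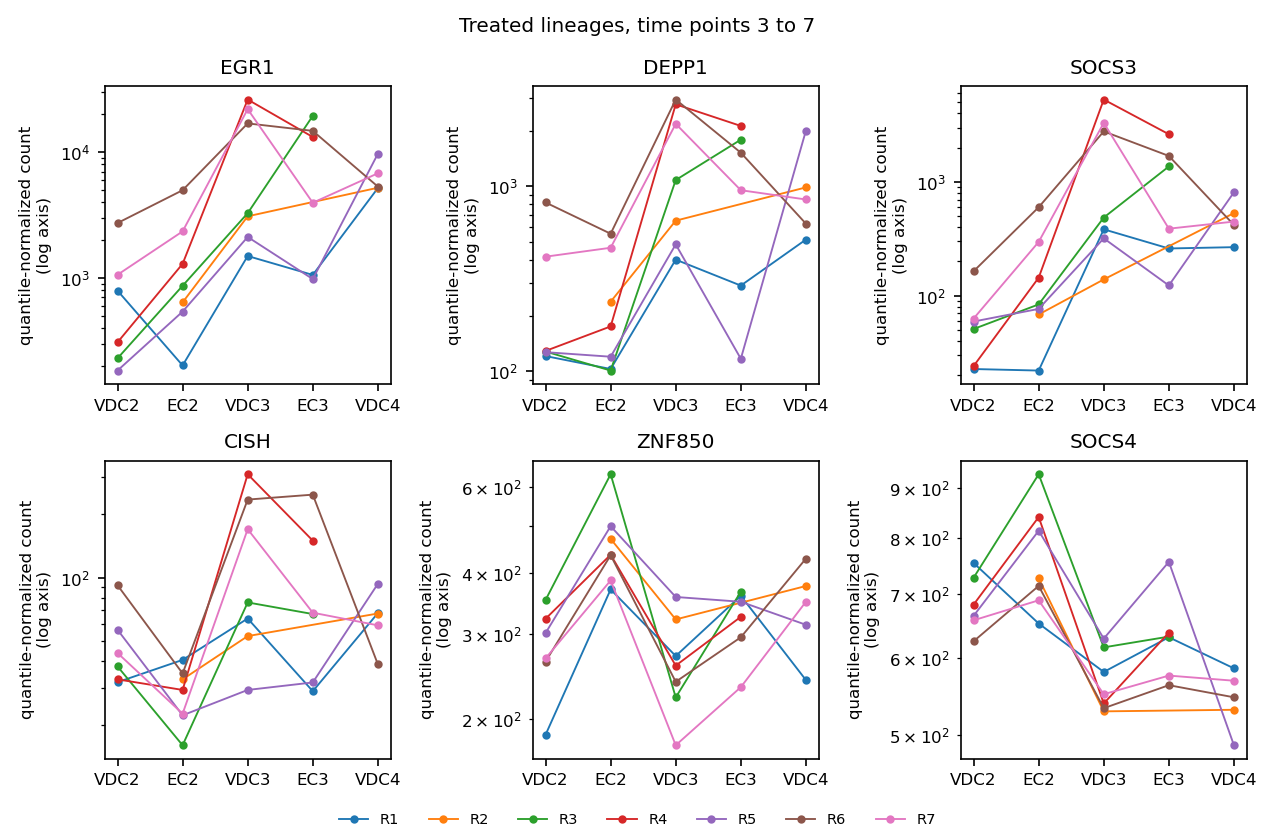
Quantile-normalized counts (log axis) of 6 genes in treated lineages at time points 3 to 7, VDC2 to VDC4, with a line for each lineage that crosses any time point without a library. EGR1, DEPP1, SOCS3 and CISH are higher at VDC3 than at EC2 in each of the 7 lineages and move in different directions between lineages afterwards, and ZNF850 and SOCS4 peak at EC2 in most lineages.

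Over all genes tested, treated and DMSO lineages lay at overlapping distances between the 2 time points. The root mean square log2 difference between time point 5 and time point 4 was 0.796 in R6, 0.788 in R1 and between 0.511 and 0.59 in R2, R3, R4, R5 and R7. The DMSO lineages had 0.522 (R8) and 0.678 (R9). It averaged 0.628 ± 0.115 in treated lineages (SD, n = 7) and 0.6 ± 0.11 in DMSO lineages (SD, n = 2), a difference of 0.0273 (exact permutation test, two-sided, p = 0.889 over 36 splits, the smallest possible being 0.0278). The sign of that difference turned without R6 or without R8.

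Fitting all 49 treated libraries with a mean for each time point, which takes the spread from every step, called 12 genes by limma at an adjusted p under 0.05. Higher were DEPP1 (adjusted p = 0.0159), MYC, CISH, SOCS1, STING1, PTGES2-AS1 and PNRC1, a nuclear receptor coactivator, at 0.559 ± 0.115, and lower were ZNF850 (adjusted p = 0.0159), SOCS4, SREK1IP1, ZNF280B and TAF1A, a subunit of the RNA polymerase I selectivity factor, at -0.64 ± 0.137. EGR1 was not among them, with the same difference of 2.63 and an adjusted p of 0.119.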

How the data were processed

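Messenger levels of CHLA-9 cultures were measured by RNA-seq, in lineages R1 to R7 given VDC and EC in turn and R8 to R10 given DMSO. Extraction used a Qiagen AllPrep kit and STAR served for alignment and counting, per the labels' protocols. Also named, per the submitters' processing notes, are featureCounts and the build GRCh38, without versions. What the authors deposited is 1 matrix of quantile-normalized counts, a signal, with 36233 genes and 73 columns. The way it was normalized is not given in the sources used here. Treated columns have 1 common total and DMSO columns another, so depth cannot be read from them and no interval for counting error was computed.

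Each value was raised by a pseudocount of 1 and put on the log2 scale, and 14565 genes averaging 10 or more over the 73 columns were kept. Paired fits used limma 3.58.1 (trend) in R 4.3.3 with the data.table package (1.17.8), lineage as a block and Benjamini-Hochberg adjustment over every gene kept, with calls below 0.05. Plots used Python 3.11.15 and matplotlib 3.10.9. The fit was tested on simulated data. Pairing by lineage comes from the labels, which carry 1 numbered culture through all time points. Deviations of same-numbered VDC3 and EC2 libraries correlated at a mean of 0.107 over 7 pairs (lowest -0.284, highest 0.481), with 3 of 7 over 0.1, against -0.0192 for other pairs. Lineages are separate cultures of 1 line, so p-values measure the spread between cultures.

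The 32 lists held 950 genes, of which 946 were found, 15 under another symbol, and 822 passed the minimum. The comparison, its lists and its tests were chosen with earlier results of these data known. Genes were named by rule: the 5 smallest p-values in each direction where fewer than 5 passed, the member of each list with the smallest p, 9 fixed genes (ABCB1 fell below the minimum) and the 3 largest of each other comparison. The SOCS family, the ZNF group, STING1, genes without overlap between groups, single genes picked for their spread over lineages, and further members of lists were named after their values were seen. Promoters came from RefSeq (GRCh38.p14). Alternatives were another pseudocount (0.1 or 10), other filters (none, a mean of at least 50, or a mean of at least 10 in the 14 libraries), median centring, robust estimation, no lineage block, all 49 treated libraries, and leaving out each lineage.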

Additional observations from a re-analysis of the deposited data

Results flagged for a closer look

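For the 47 genes named by rule and the distance between time points, of 142 groups of 7 values checked for 1 library far from the rest, 7 held one past Dixon's 95% critical value, which chance alone passes in about 1 of 20 groups. Values are log2 levels. After VDC3, lineage R5 was high for LINC02593, at 9.35 with its nearest neighbour at 8.52, and for E2F3, at 10.5 against 10.1. Lineage R2 was low for CCN1 after VDC3, at 10.4 against 12.6. After EC2, R1 was high for SLC22A16, at 5.43 against 2.84, and for EWSR1, at 11.5 against 11.4. R2 was low for the small nucleolar RNA SNORA73B after EC2, at 8.24 against 9.78, and R4 was high for MDM2, at 12.5 against 11.3. Without R4 or R2, no direction reported for MDM2 or SNORA73B turned.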

How the results depend on the processing

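The difference of 116 named genes between VDC3 and EC2 was recomputed under every alternative, for 69 of them as an addition after the data were seen, and 107 kept their direction. The other 9 turned with 1 lineage left out: EWSR1 (-0.029 to 0.0195), DUSP5 (-0.183 to 0.811) and FOSL2 (-0.18 to 0.391) without R1, SOCS6 (-0.0559 to 0.0827) without R1 or R5, COL12A1 (-0.399 to 0.824) without R5, COL1A1 (-0.611 to 0.104), CA12 (-1.16 to 0.441) and FOSL1 (-0.404 to 0.108) without R6, and EGR4 (-0.571 to 0.465) without R1, R3 or R5. With a pseudocount of 0.1 CA12 had 0.134, and with 10 EGR4 had 0.239. Genes called in VDC3 against EC2 numbered 12 in the fit of all 49 treated libraries, 2 in the fit of 18 libraries and 0 to 2 when 1 lineage was left out, and 0 without the replicate block. Genes at an unadjusted p under 0.05 numbered 2223 with no filter on low values and 897 to 2554 with 1 lineage left out. Immediate early genes higher at that level numbered 18 to 24 with 1 lineage left out, ZNF genes lower 71 to 137, and ribosomal protein genes higher 19 to 57, or 9 with 49 libraries. For the DMSO change, R8 and R9 alone gave 713 called and 2575 at an unadjusted p under 0.05, and leaving out 1 lineage gave 200 to 1165. The same range was 104 to 615 for the difference between arms, 398 to 1175 for VDC4 against EC3, 183 to 1313 for EC3 against VDC3, and 541 to 3421 called for EC2 against VDC2, which without the replicate block had 185. The distance difference ranged from -0.0508 to 0.105 and was negative without R6 (-0.000707) and without R8 (-0.0508). The causes were not tested. Depth is unknown, so precision rests on 7 lineages and 2 DMSO lineages alone.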
